A study of Homo sapiens with 7 samples.

Results

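CAMP and CD14 are genes of the antimicrobial response of monocytes, and binding of the vitamin D receptor (VDR) around each was read from the peak lists of 6 libraries. The members are all peaks that overlap either gene or the 100 kb on each side of it. In hg19 these spans are chromosome 3 at 48164837 to 48366981 for CAMP (gene at 48264837 to 48266981) and chromosome 5 at 139911313 to 140113286 for CD14 (gene at 140011313 to 140013286). They held 23 of the 89218 peaks in all lists, 7 at CAMP and 16 at CD14. Peaks of different lists that overlapped by 1 bp or more were joined into a site, which gave 3 sites at CAMP and 8 at CD14.

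The libraries come from THP-1, an established human monocytic leukaemia cell line. Cells received 100 nM of the hormone 1α,25-dihydroxyvitamin D3 (1,25D) or the solvent, 0.1% ethanol (EtOH), for 8 h. Chromatin was recovered with a VDR antibody by ChIPmentation, a form of chromatin immunoprecipitation that uses a transposase to attach adapters to the bound DNA. There were 3 libraries per treatment, and 1 input library is not used here. The line carries no stated genetic change, and nothing in the labels says that replicates came from separate cultures, so spread between them may be technical. The lists sort chromosome names as text, so chromosome 16 comes before 3 and 5. As used here the list of 1,25D replicate 2 stops on chromosome 16 and covers neither gene. The list of 1,25D replicate 3 stops on chromosome 5 at 90175161, before CD14. CAMP was therefore covered by 2 1,25D and 3 EtOH lists, and CD14 by 1 1,25D list, replicate 1, and 3 EtOH lists. Every statement on 1,25D at CD14 rests on that single library.

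VDR is a nuclear receptor that binds DNA with its partner RXR, typically at pairs of short half-sites, and ligand changes the coregulators it recruits. CAMP encodes the precursor of the antimicrobial peptide LL-37, which disrupts bacterial membranes. In human cells CAMP is a textbook direct target of VDR, through a response element in front of the gene that lies in a primate Alu repeat. CD14 is a surface protein that hands bacterial lipopolysaccharide to the receptor TLR4 and its partner MD-2. It marks monocytes and rises when myeloid leukaemia cells are driven towards monocytes by 1,25D. Expression of either gene was not measured in these libraries.

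The 2 loci differed in layout. CAMP had 1 strong site, directly at the start of the gene, and it was listed with and without hormone at similar folds. CD14 had a pair of strong sites downstream of the gene, listed in all covering libraries but at 4.34 to 5.33 times the EtOH folds in the 1,25D library, and a weaker site inside the gene that only the 1,25D list held. A fold here is the enrichment of a peak over the peak caller's background, as the authors deposited it.

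**Figure D1:**
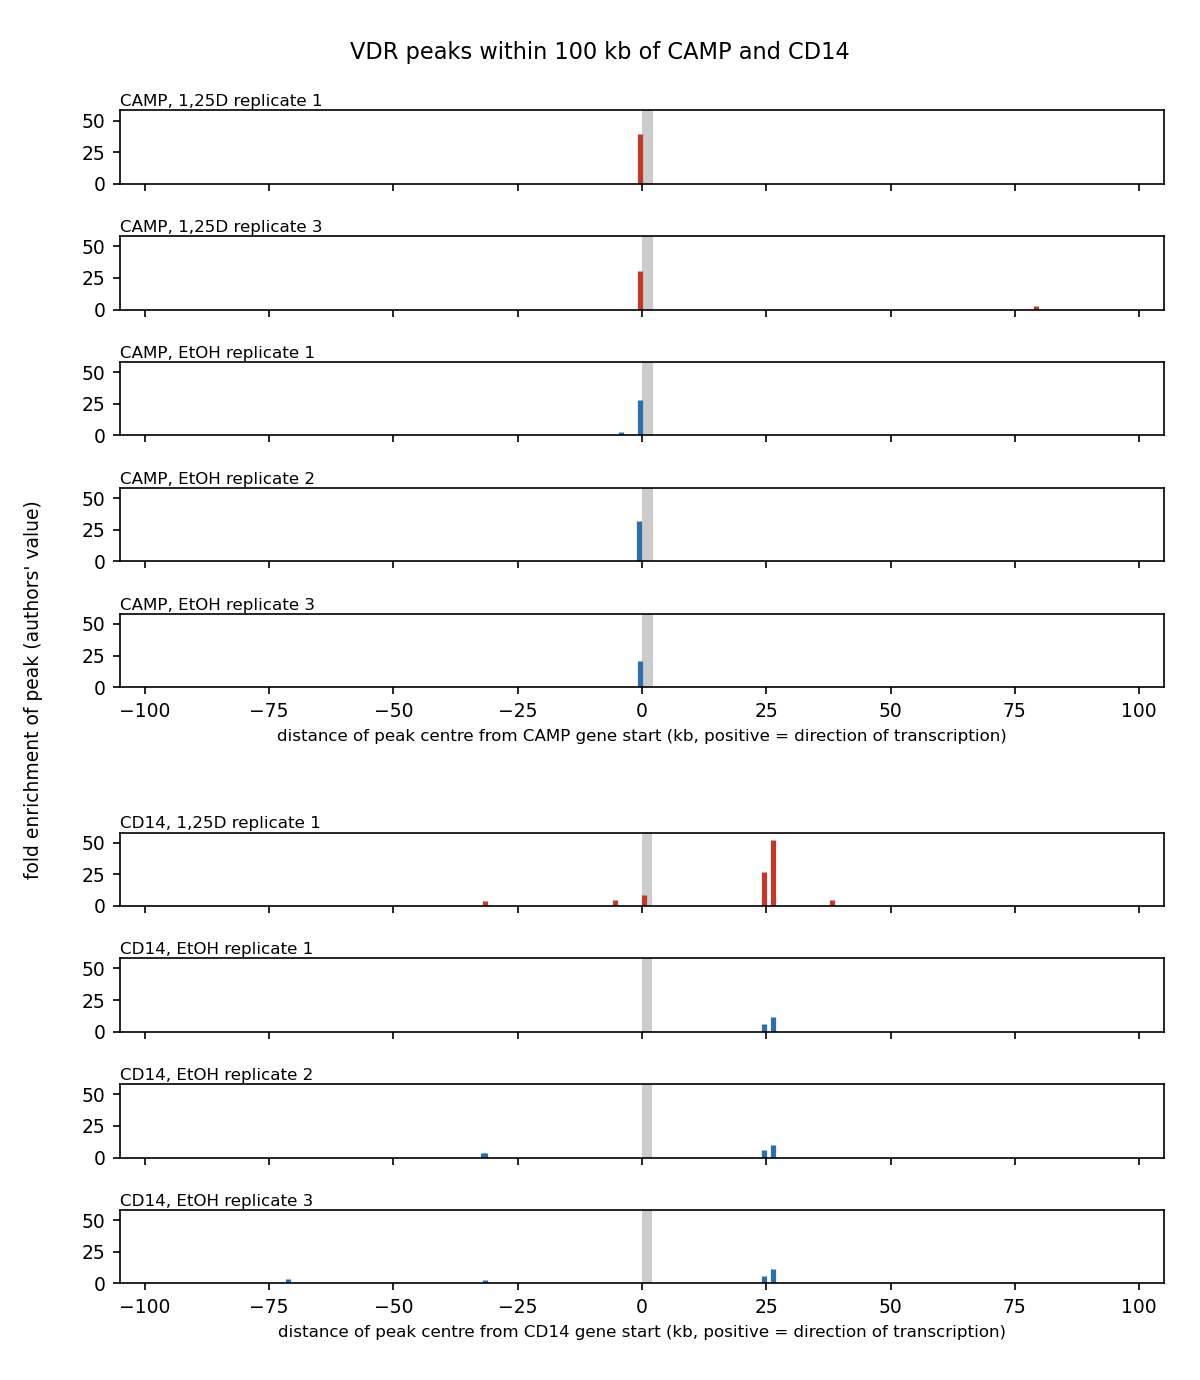
VDR peaks by distance of their centre from the gene start (kb, positive in the direction of transcription), 1 row per covering list, with bar height giving the fold enrichment (red 1,25D, blue EtOH, grey the gene). CAMP shows 1 tall bar at its start in all 5 lists, whereas CD14 shows 2 neighbouring bars downstream that reach 51.7 and 27.0 in 1,25D replicate 1 and stay at or below 11.7 in the EtOH lists.

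At CAMP the site at the gene start spanned chromosome 3 at 48263681 to 48264957 over all lists. Its fold was 39.5 in 1,25D replicate 1 and 30.4 in 1,25D replicate 3. The fold was 27.7, 31.5 and 20.3 in EtOH replicates 1 to 3. EtOH replicate 2 was above 1,25D replicate 3, so the treatments overlapped. The means were 34.9 ± 6.44 (SD, n = 2) for 1,25D and 26.5 ± 5.69 (SD, n = 3) for EtOH, a ratio of 1.32 that is within the spread between libraries. Folds come from lists processed separately and were not tested against each other. The authors' p-value of the peak was 5.16e-115 and 1.20e-84 after 1,25D, and 8.97e-74, 8.43e-78 and 6.31e-49 after EtOH.

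CAMP was among the strongest places of the EtOH lists. Within the stretch that all 5 lists cover, its peak was number 7 of 9248 by fold in EtOH replicate 1, number 6 of 21369 in replicate 2 and number 16 of 10389 in replicate 3. In the 1,25D lists it was number 20 of 9433 (replicate 1) and number 35 of 8620 (replicate 3). These lists differ in length, so the ranks were also taken over the 612 sites that every one of the 5 lists holds. There CAMP stood at 20 and 33 after 1,25D and at 7, 6 and 16 after EtOH, with 1 as the highest fold. The ranks did not overlap, with mean ranks of 26.5 and 9.67 and a difference of 16.8 places. An exact permutation test of the mean rank, two-sided, gave p = 0.1, which no split of 2 against 3 libraries can go below. Such an order was common: 24.5% of the 612 sites ranked below all 3 EtOH ranks in both 1,25D lists, and 22.2% ranked above them. Ranks depend on all the sites ranked, not on CAMP alone.

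The ratio of the folds at CAMP was below that of most shared sites, but most of those sites were weaker. Their median EtOH fold was 5.50, against 26.5 at CAMP. At sites with EtOH folds near CAMP's the ratio went both ways, and how often was not counted. For example, the mean folds after 1,25D and EtOH were 52.7 and 24.7 at 1 site (a higher ratio). They were 36.9 and 29.5 at another (a lower ratio). The median ratio of mean 1,25D to mean EtOH fold over the 612 sites was 1.61 (quartiles 1.22 and 2.27), and 68.1% of the sites had a higher ratio than CAMP's 1.32. At 68.0% of them the folds of both 1,25D lists were above all 3 EtOH folds, which was not so at CAMP. Presence without hormone was usual for a site of this strength. Of 59 sites at or above a fold of 25 in 1,25D replicate 1, 93.2% were in every EtOH list, and CAMP was one of these.

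**Figure D2:**
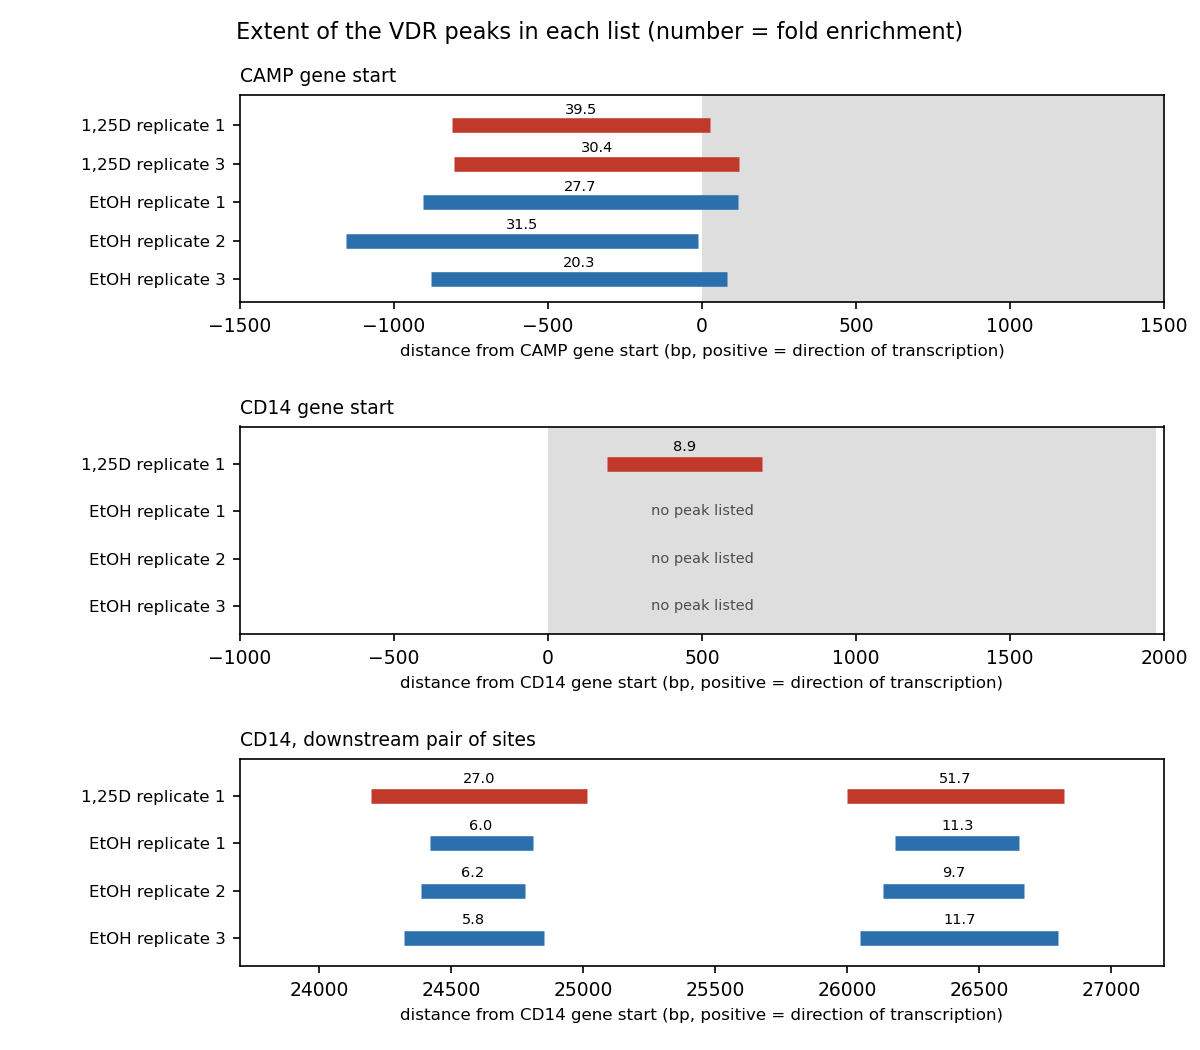
Start and end of each peak relative to the gene start (bp, positive in the direction of transcription), 1 row per list, with the fold enrichment above each bar and the gene shaded grey. All 5 CAMP bars cover the stretch just before the gene, and the 1,25D bars at the CD14 pair extend beyond all EtOH bars on both sides.

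The CAMP peaks lay over the stretch in front of the gene. The bases common to all 5 peaks, 790 bp, ran from 804 bp to 14 bp before the gene start. In 1,25D the peaks were 838 bp and 924 bp long and began 813 bp and 804 bp before the start. In EtOH they were 1023 bp, 1142 bp and 963 bp long and began 906 bp, 1156 bp and 881 bp before it. The EtOH peaks were all longer than both 1,25D peaks, and they reached further upstream. That order was rare among the 612 sites: at 2.78% both 1,25D peaks were shorter than all 3 EtOH peaks, and at 46.4% both were longer. Starts may be counted from 0 or from 1 in the lists, so a distance can be off by 1 bp.

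The rest of the CAMP window was nearly empty. Besides the start site it held 2 sites, each in a single list. EtOH replicate 1 had a peak at 48260522 to 48260669 (fold 3.08), centred 4.24 kb before the gene start. In 1,25D replicate 3 there was a peak at 48344100 to 48344242 (fold 3.09), centred 79.3 kb after it. No site of the window was in both 1,25D lists and absent from the EtOH lists, a pattern found at 2.37% of the 50857 sites in the stretch. Sites in every list made up 1.20% of the stretch's sites, and 5.40% of 10740 end-to-end windows of the same length held at least 1 (0.270% held 2 or more). The number of peaks per library in the window was 1 and 2 for 1,25D and 2, 1 and 1 for EtOH, with overlapping groups (1.5 ± 0.707, n = 2, and 1.33 ± 0.577, n = 3). The difference in mean log2(number + 1) was 0.10, with a two-sided exact permutation p of 1 over 10 assignments.

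The CAMP promoter is shown because every list had a peak just before the gene start used with the peaks. The promoter of CD14 is printed beside it. No list had a peak overlapping the CD14 start used with the peaks, but the printed bases were not placed on hg19. The CD14 bases are therefore not a stretch known to be free of peaks. Both sequences are the 250 bases before the start given in RefSeq (GRCh38.p14), 5′ to 3′ on the strand of the gene. They lie on chromosome 3 at 48223245 to 48223494, plus strand, and on chromosome 5 at 140633176 to 140633425, minus strand. Capitals mark matches on either strand to the nuclear receptor half-site AGGTCA, to its variants (which were GGTTCA, then the form AGTTCA, and also the form GGGTCA) or to the core of sites for PU.1-type ETS factors, which is GAGGAA.
CAMP promoter: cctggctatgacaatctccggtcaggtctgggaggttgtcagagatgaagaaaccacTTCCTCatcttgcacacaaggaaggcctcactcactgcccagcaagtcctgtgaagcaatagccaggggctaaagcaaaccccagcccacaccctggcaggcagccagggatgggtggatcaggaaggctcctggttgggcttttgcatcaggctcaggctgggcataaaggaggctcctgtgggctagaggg
CD14 promoter: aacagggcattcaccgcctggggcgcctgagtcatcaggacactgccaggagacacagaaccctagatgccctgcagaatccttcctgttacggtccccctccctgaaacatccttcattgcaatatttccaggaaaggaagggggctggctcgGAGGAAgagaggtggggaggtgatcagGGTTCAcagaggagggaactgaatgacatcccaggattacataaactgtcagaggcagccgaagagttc

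The CAMP window held GAGGAA once, on the opposite strand (printed as TTCCTC), beginning 193 bp before the RefSeq start. CD14 held GAGGAA once, beginning 96 bp before its start, and the half-site GGTTCA once, beginning 69 bp before it. Over the first 250 bases of all 35116 promoters in the table, 23.6% hold GAGGAA, 7.16% hold GGTTCA and 33.8% hold any of the 4 half-sites. Neither window had 2 half-sites in direct repeat 3 bp apart, which 0.0655% of promoters have. These matches are descriptions of letters in a window. The bases common to all CAMP peaks span 790 bp, more than the 250 bases printed, so most of the sequence under the peaks was not searched. How much of the printed CAMP window lies under the peaks is not known either. Lack of a half-site in that window therefore says nothing on the sequence under the peaks. Whether the known response element in front of CAMP lies in the printed bases was not examined. The table's build differs from that of the peaks, and its CAMP gene is 1991 bp long against 2145 bp for the span used with the peaks, so the printed bases were not placed against the peak edges. The CD14 lengths were 1970 bp and 1974 bp.

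At CD14 the stronger site of the pair spanned chromosome 5 at 139986465 to 139987288, centred 26.4 kb after the gene start in the direction of transcription (CD14 is on the minus strand). Its fold was 51.7 in 1,25D replicate 1. The EtOH folds were 11.3, 9.69 and 11.7 in replicates 1 to 3, or 10.9 ± 1.07 (SD, n = 3). The 1,25D value was 4.57, 5.33 and 4.42 times the EtOH values in turn. The authors' p-value of the peak was 1.06e-146 after 1,25D and between 9.01e-17 and 4.28e-22 in the EtOH lists.

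The second site of the pair spanned 139988273 to 139989091, centred 24.6 kb after the gene start, and its nearer edge lay 22222 bp beyond the gene's end. Its fold was 27.0 in 1,25D replicate 1. EtOH replicates 1 to 3 gave 5.95, 6.23 and 5.79, or 5.99 ± 0.221 (SD, n = 3). The 1,25D value was 4.54, 4.34 and 4.67 times these. All 3 EtOH folds were far below the 1,25D fold at both sites, and they lay close to each other. With 1 library against 3, an exact permutation test cannot give a p below 0.25.

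**Figure D3:**
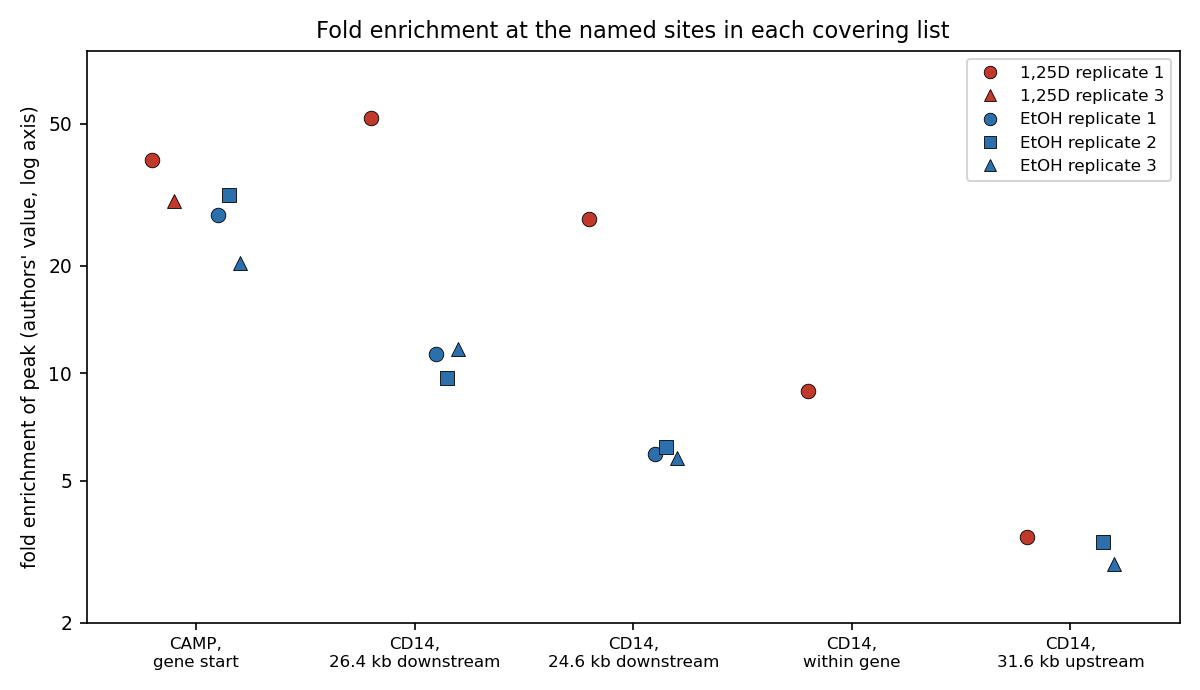
Fold enrichment (authors' value, log axis) at the named sites in each covering list, with 1,25D in red, EtOH in blue and the replicate number by symbol. The 1,25D and EtOH points overlap at CAMP and are set apart at both downstream CD14 sites, and the site within CD14 has a 1,25D point alone.

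The pair kept its proportions. The stronger site had 1.91 times the fold of the second in 1,25D replicate 1, and 1.90, 1.56 and 2.02 times in EtOH replicates 1 to 3, so the 1,25D list lay inside the range of the EtOH lists. The sites were separated by 985 bp. Among neighbouring sites that all 4 lists hold, 7 of 661 gaps were 2 kb or less (1.06%), against a median gap of 1752 kb. Only 0.310% of 11627 end-to-end windows of this length held 2 or more such sites, and 5.50% held at least 1.

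Among the 680 sites found in all 4 lists, the stronger CD14 site ranked 6.5 in 1,25D replicate 1 (a tie) and 63, 103.5 and 58.5 in EtOH replicates 1 to 3. The second site ranked 47.5 after 1,25D and 258.5, 283.5 and 305 in the EtOH lists. Both stood nearer the top after 1,25D, with rank differences (1,25D minus mean EtOH) of -68.5 and -234.8. Each had a two-sided exact permutation p = 0.25, the floor for this number of libraries. Of the 680 sites, 28.7% ranked above all 3 EtOH ranks after 1,25D and 31.9% ranked below them. How common rank differences of this size are was not counted, but fold ratios of the size seen here were uncommon. The ratio of the 1,25D fold to the mean EtOH fold was 4.74 and 4.51 at the 2 sites, against a median of 1.51 (quartiles 1.13 and 2.19), and 6 and 11 of the 680 sites had a higher ratio than these (0.882% and 1.62%). A 1,25D fold above all 3 EtOH folds was itself frequent, at 71.8% of the sites. Of 66 sites at or above that fold of 25 in the 1,25D list, 93.9% were in every EtOH list, as both CD14 sites were.

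**Figure D4:**
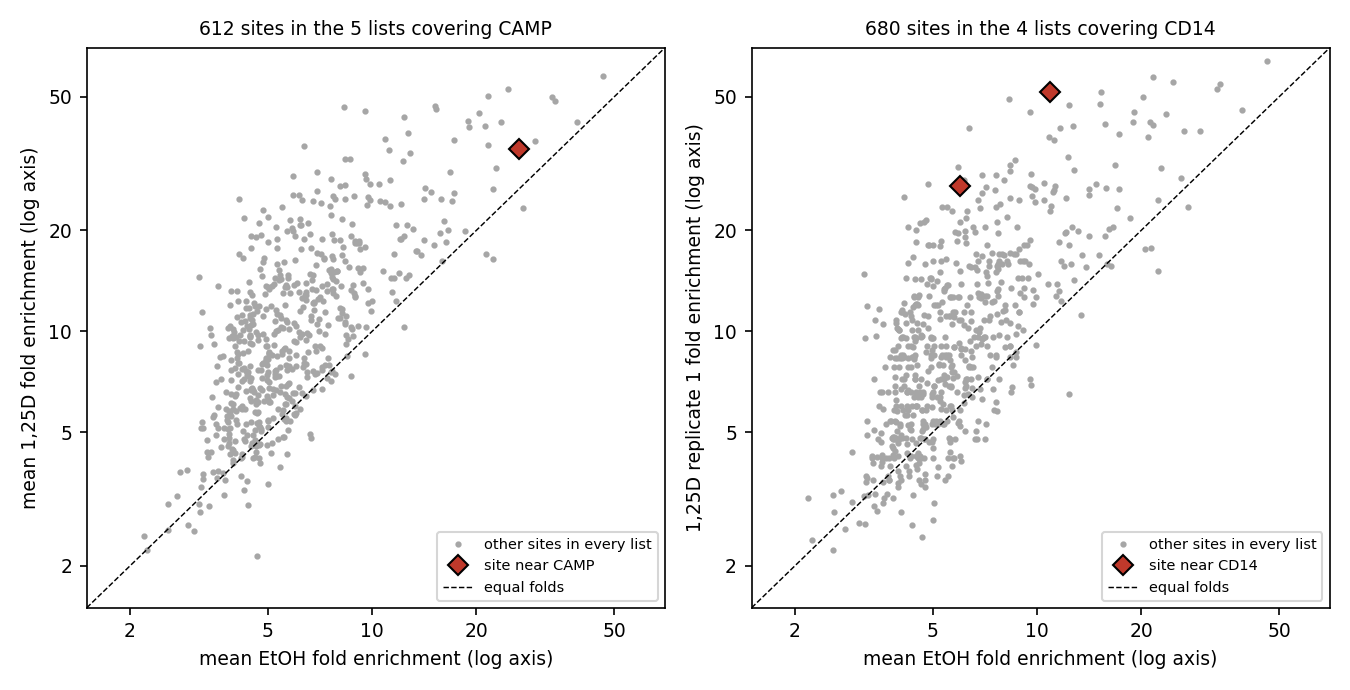
Each point is a site held by every covering list, by mean EtOH fold (x, log axis) and 1,25D fold (y, log axis; mean of 2 lists for CAMP, replicate 1 alone for CD14), with the sites near each gene as red diamonds and equal folds as a dashed line. The CAMP site (26.5 and 34.9) lies near the line, and the CD14 sites (10.9 and 51.7, 5.99 and 27.0) lie along the upper edge of the points.

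Peaks at the pair were also longer after 1,25D. The stronger site's peak was 823 bp long in 1,25D replicate 1 and 470 bp, 534 bp and 750 bp in EtOH replicates 1 to 3. At the second site the lengths were 818 bp after 1,25D and 390 bp, 393 bp and 528 bp after EtOH. At both sites each EtOH peak lay inside the 1,25D peak, whereas at CAMP the EtOH peaks were the longer ones. Longer 1,25D peaks were usual, since at 51.0% of the 680 sites the 1,25D peak was longer than all 3 EtOH peaks (11.8% shorter).

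Inside CD14 there was a site in the 1,25D list alone, at 140012591 to 140013094 with a fold of 8.90 and an authors' p-value of 2.43e-16. It covered the stretch from 192 bp to 695 bp after the gene start. No EtOH list had a peak there, which says that none passed the caller's threshold. For peaks of this size that is not rare: of 241 sites with a fold of 8 to under 10 in this 1,25D list, 20.3% were in no EtOH list. No second 1,25D list covers the site, so it has no replicate check. In RefSeq the neighbouring gene TMCO6 overlaps CD14 (GRCh38.p14). The peak was not placed on that build, so whether it also lies in TMCO6 is not known, and it was not assigned to CD14 alone.

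Upstream of CD14 a weak site at 140044733 to 140045061, centred 31.6 kb before the gene start, was listed in 3 of the 4 libraries. The folds were 3.47 for 1,25D replicate 1 and 3.36 and 2.91 for EtOH replicates 2 and 3, and EtOH replicate 1 had no peak. These values differ little between the treatments. The other 4 sites of the window were in 1 list each, with folds of 3.21 to 4.81. They were in 1,25D replicate 1 at 38.3 kb after the gene start (fold 4.33) and 5.50 kb before it (4.81), in EtOH replicate 2 at 32.0 kb before it (3.21) and in EtOH replicate 3 at 71.2 kb before it (3.71). In total 3 of the 8 CD14 sites were in the 1,25D list and in no EtOH list, beside 16.2% of the 51880 sites in the stretch, and 2 of 8 were in every list, beside 1.31%. At a fold of 5 or more in each list only the site inside the gene was left of the 3. The 1,25D list had 6 peaks in the window and the EtOH lists had 2, 4 and 4.

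The order of the 2 genes within a library differed between the treatments. CAMP had the higher fold in every EtOH list, at 2.45, 3.25 and 1.74 times the stronger CD14 site in replicates 1 to 3. In 1,25D replicate 1 the CD14 site had 1.31 times the fold of CAMP. These ratios are taken within a list, and only this 1,25D list covers both genes. Between the replicates 1, whose lists end at the same strictness (highest p 0.00433 and 0.00431), the EtOH and 1,25D folds were 27.7 and 39.5 at CAMP, 11.3 and 51.7 at the stronger CD14 site and 5.95 and 27.0 at the second.

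The genes around both loci were taken from RefSeq by order only, since its build differs from that of the peaks. Beside CAMP the nearest on the lower-coordinate side are the microRNA gene MIR4443, the cell cycle phosphatase gene CDC25A and 3 pseudogenes. On the other side ZNF589, NME6 and SPINK8 follow, with 2 pseudogenes between them. The pair of CD14 sites lies on the lower-coordinate side of its gene, where RefSeq lists the pseudogene RPL36P11, LOC112267855, the pseudogene HAUS1P1, the snoRNA LOC124900208 and the nucleotide sugar transporter gene SLC35A4. On the other side are NDUFA2, a subunit of respiratory complex I, and then IK, MIR3655, LOC124901088 and WDR55. Which of these genes a VDR site acts on was not tested.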

How the data were processed

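The submitters' processing notes name Bowtie 1.1, MACS2 and the build hg19 (GRCh37), without settings. Whether the input served as control, the threshold and any duplicate removal are not stated there. Each deposited list belongs to 1 library and gives, per the file headers, a peak's position, its fold enrichment (a ratio over background) and its p-value. Read counts are not listed, so depth is unknown and no interval is given. Incomplete last lines of 3 lists were left out. The highest p was 0.00431 and 0.00433 in both replicates 1 and 0.00978 to 0.00997 in the other lists.

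Peaks sharing 1 bp were merged over the lists covering a gene, and a list's highest fold was taken at a site. Backgrounds use the stretch these lists share, in file order, up to chromosome 5 at 90175161 for CAMP and chromosome 6 at 86580665 for CD14. File order sorts chromosome names as text, so both stretches also hold chromosomes with higher numbers, such as 16. Sites in 2 or more lists, or with a fold of 5 or more, were named individually. The remaining single-list sites were few enough to be listed too, a choice made after their values were seen. The members, lists and tests were chosen with earlier results of these data known, and ranks, lengths and within-list ratios were added after the lists were seen. Other antimicrobial genes were not analysed here, as no hg19 annotation was at hand. The code for merging and ranking was checked on simulated lists. The differences planted there were larger than those reported here, so this is a check of the code only. Python 3.11.15, numpy 2.4.6 and pandas 2.3.3 were used. No column of another sample was used (0).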

Additional observations from a re-analysis of the deposited data

How the results depend on the processing

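The alternatives were a fold of 5 or more, 1 highest p for all lists, 50% overlap and 50 kb or 200 kb each side. Each library was also left out. Replicates 1 only and without replicates 1 (CD14 then has no 1,25D list) were chosen after seeing the data. The site at the CAMP start and both downstream CD14 sites were found in every list under each alternative tried. Only the 50% overlap could have changed this, so the other alternatives are no test of these sites. Their folds were 5.79 or more, their p-values were 6.48e-09 or lower, and they lay within 50 kb of the gene. Leaving out lists cannot remove a site that all lists hold. The number of CD14 sites in every list was 2 to 3. Hormone-only sites at CD14 numbered 3, but 1 at a fold of 5 or more, and 4 for replicates 1 only. At CAMP they numbered 0, but 1 without 1,25D replicate 1 and 1 without replicates 1, where a single 1,25D list counts. They ranged from 0 to 1 over the left-out libraries. The share of all sites called hormone-only was not counted under these alternatives. Fewer lists of either treatment make such a call easier, so these counts cannot be compared directly.

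The difference in log2 peak number at CAMP (0.10) had no stable direction. It was -0.19 at 50 kb, -0.22 at 200 kb, -0.58 for replicates 1 only and -0.19 to 0.39 over the left-out libraries, with -0.19 without 1,25D replicate 3. With the replicate block it was 0 (exact permutation p of 1). Replicate numbers were not taken to pair libraries, since the labels name no shared origin and the CAMP lists share only 2 numbers. With 2 1,25D lists, whose deviations from their mean mirror each other, a correlation of deviations cannot show pairing. The rank difference, which does not depend on the window and was not run with the block, kept its direction in the other alternatives, at 10.3 to 23.3 places for CAMP, -54.2 to -76.8 for the stronger CD14 site and -175.8 to -255.8 for the second.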
